A study of Mus musculus with 10 samples.

Results

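The clustered protocadherin genes lie side by side on mouse chromosome 18, as the Pcdha, Pcdhb and Pcdhg clusters in that order. Every CpG cytosine at chr18:37080000-38010000 of build mm9 was taken, with an alpha stretch up to 37400000, a beta stretch up to 37750000 and a gamma stretch from there on. The gene table used for names holds 58 clustered protocadherin genes, 14 of them alpha, 22 beta and 22 gamma. It also places Slc25a2 and Taf7, which are not protocadherins, between the beta and gamma genes. Of 7972927 autosomal CpG cytosines listed in any library, 4956 were members: 1303 in alpha, 1140 in beta and 2513 in gamma. A member entered a comparison with 5 or more reads in every library of it, which left 261 cytosines in MLL-AF9 leukaemia and 598 in cMyc-Bcl2 leukaemia.

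Methylation was read by reduced representation bisulfite sequencing, which samples fragments rich in CpG. Bisulfite treatment turns unmethylated cytosines into uracil, which is then read as thymine. All 10 libraries came from leukaemic mouse spleen. MLL-AF9, a fusion oncoprotein of acute leukaemia, drove the first model, whose cells carry the label c-kit+, a receptor of immature blood cells. It had 3 libraries labelled WT and 3 labelled Dnmt3b-knockin. The second model was driven by cMyc, a transcription factor, with Bcl2, an inhibitor of apoptosis, and had 2 WT and 2 Dnmt3b-knockin libraries with no c-kit label. Dnmt3b is a de novo DNA methyltransferase, and the series text describes the knockin mouse as tetracycline-inducible. The labels give no age, strain, inducer dose, Cre or promoter, and Dnmt3b expression was not analysed here, so the knockin label has no check here. They do not say whether libraries came from separate mice, so each p-value measures the spread between these libraries. Oncogene and c-kit label coincide, and their parts in any difference between the models cannot be told apart.

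Clustered protocadherins are adhesion proteins of the cadherin superfamily, best known from neurons, where each cell uses its own combination of isoforms as a surface identity. In the alpha and gamma clusters each variable exon has its own promoter and is spliced to constant exons shared by the cluster, while the beta genes have no shared constant exons. The C-type isoforms, Pcdhac1 and Pcdhac2 in alpha and Pcdhgc3, Pcdhgc4 and Pcdhgc5 in gamma, are the last variable genes of their clusters. Promoter choice involves CTCF and cohesin, which bring a promoter to a distant enhancer, and Dnmt3b is known to methylate these promoters in the early embryo. No window below is assigned to a gene, since the gene table is of another build, and windows are named by stretch and distance from the start of the region.

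Read calls ran from 14446933 to 46762220 per library, and 0.910 to 3.20% of mitochondrial calls, a guide to unconverted cytosines, were methylated. The protocadherin region held 6138 to 12937 reads in the MLL-AF9 libraries and 21252 to 23601 in the cMyc-Bcl2 libraries. The median was 19 reads per usable cytosine and library in MLL-AF9 and 26 in cMyc-Bcl2, against 19 and 25 over the autosomes. The share of autosomal reads on chromosome 18, relative to the median share of the 10 libraries, was 0.970 to 1.05. The region's own share was less even, at 0.0390 to 0.0446% of autosomal reads in the MLL-AF9 libraries. It was 0.0770 and 0.0496% in cMyc-Bcl2 WT and 0.0503 and 0.0594% in cMyc-Bcl2 knockin libraries.

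In WT leukaemias the protocadherin region had a large share of windows at middle levels. Reads were summed in 1-kb windows holding 3 or more usable cytosines. In MLL-AF9 WT, 19 of 36 windows, 52.8%, had a mean level between 20 and 80%, against 17.8% of autosomal windows. In cMyc-Bcl2 WT the count was 35 of 68 windows, 51.5%, against 19.2%. Windows over 80% made up 33.3% in MLL-AF9 WT, against 37.9% of autosomal windows, and 36.8% in cMyc-Bcl2 WT, against 46.7%. The beta stretch was the most methylated, with 5 of 9 windows over 80% in MLL-AF9 WT and 11 of 20 in cMyc-Bcl2 WT. In gamma, 12 of 22 and 21 of 36 windows were at middle levels. These shares describe the libraries and carry no test.

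**Figure D1:**
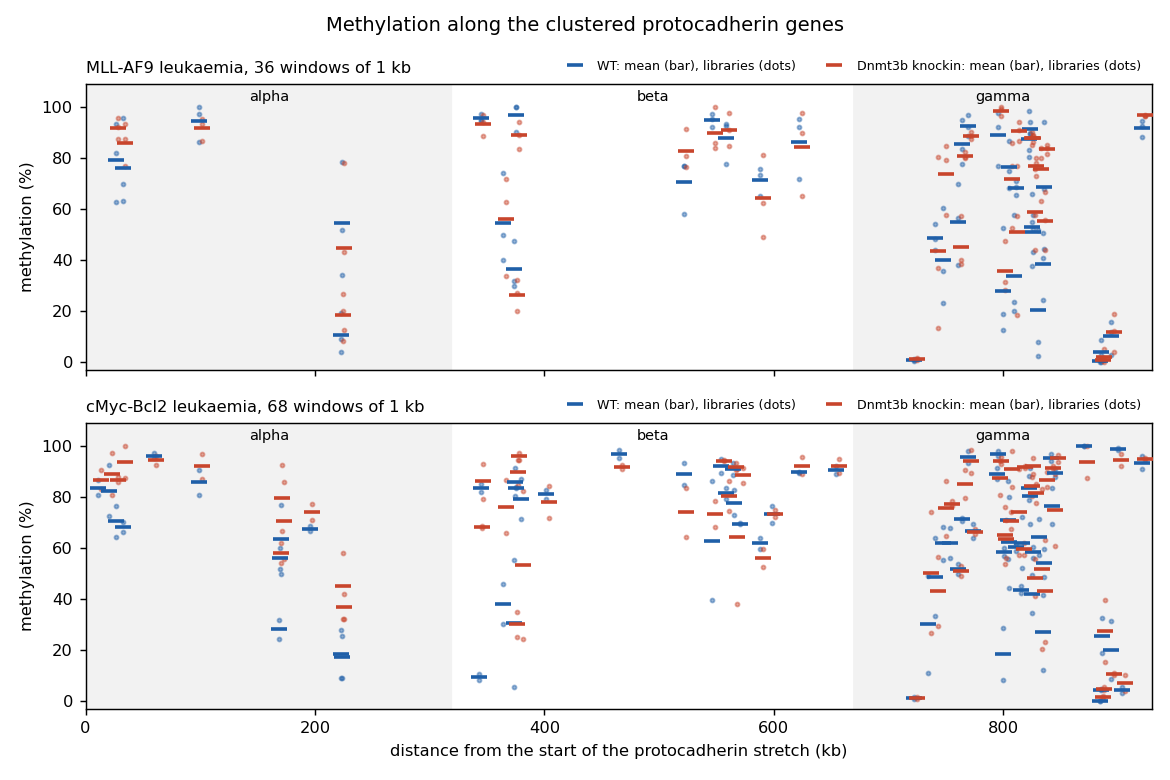
Methylation in percent (y axis) of 1-kb windows against distance in kb from the start of the region (x axis), MLL-AF9 above and cMyc-Bcl2 below. Dots are libraries and bars group means, blue for WT and red for Dnmt3b knockin; most beta windows lie high, gamma windows between 741 and 836 kb spread over the whole scale, and windows at 723, 885 and 886 kb stay near 0.

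A few windows had the same state in every library. Of 33 windows with 3 or more cytosines usable in all 10 libraries, 3 were under 20% in each library, and all 3 lay in gamma. The window at 723 kb, with 39 cytosines at chr18:37803589-37803900 and 894 to 4113 reads per library, ranged from 0.546 to 1.68%. It supplied 39 of the 160 gamma cytosines used in the MLL-AF9 comparison. Whether it belongs to a protocadherin gene or to Slc25a2 or Taf7 was not determined. The windows at 885 and 886 kb, near the end of the cluster, ranged from 0 to 2.26% and from 0 to 8.70%. Another 4 windows were over 80% in every library: 1 in alpha at 100 kb, 2 in beta at 345 and 376 kb and 1 in gamma at 922 kb. Over the autosomes 37.5% of such windows were under 20% throughout and 24.8% over 80%, against 9.09 and 12.1% here.

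MLL-AF9 knockin leukaemias had a mean protocadherin methylation of 56.3% ± 1.44 (SD, n = 3), against 52.0% ± 3.93 (SD, n = 3) in WT. The WT libraries read 50.6, 56.5 and 49.0% and the knockin libraries 56.1, 57.8 and 54.9%, so that WT library 2 lay within the knockin range. The difference was 4.23 points with a standard error of 2.42, beside 2.32 points (SE 0.566) over all autosomal cytosines, where the genotypes did not overlap. It was unevenly spread. In gamma the libraries did not overlap: WT read 41.0, 45.2 and 38.0% and knockin 47.6, 48.2 and 45.9%, a difference of 5.80 points (SE 2.21). In beta the difference was -0.427 points (SE 1.62), with means of 74.3 and 73.9%. In alpha the difference was 5.10 points (SE 6.27), and WT library 2 at 70.1% lay far above WT libraries 1 and 3 at 52.6 and 58.4%. With 1 library left out the difference over the region was 2.49 points without WT library 3 and 6.40 points without WT library 2. That of gamma was 3.57 points without WT library 3. That of alpha was 0.850, 9.97 and 1.61 points without WT library 1, WT library 2 and knockin library 2. The beta difference changed sign without WT library 1 or 2, at 0.222 and 0.878 points. Means over the members carry no p-value.

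cMyc-Bcl2 knockin leukaemias had a mean of 63.4% ± 2.51 (SD, n = 2), against 55.3% ± 0.281 (SD, n = 2) in WT. WT libraries read 55.1 and 55.5% and knockin libraries 65.2 and 61.6%, with no overlap and a difference of 8.12 points (SE 1.79). Over all autosomal cytosines the difference was 3.11 points (SE 0.671). With each cytosine counted once it was largest in alpha, where WT read 54.0 and 48.5% and knockin 72.1 and 60.0%, a difference of 14.8 points (SE 6.67). Beta differed by 7.17 points (SE 2.52), from 74.4 and 70.1% to 78.2 and 80.8%. Gamma differed by 6.06 points (SE 2.71), from 47.4 and 51.9% to 57.2 and 54.2%. The genotypes did not overlap in alpha, beta or gamma. The sizes depended on the weighting. With cytosines weighted by reads the difference over the region was 2.64 points, and that of gamma was -1.33 points. With each window counted once it was 5.09 points over the region, 6.14 in alpha, 2.53 in beta and 6.21 in gamma, so that alpha was not the largest. The alpha difference was 8.75 points without knockin library 1, and 27.8 points on cytosines usable in all 10 libraries.

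**Figure D2:**
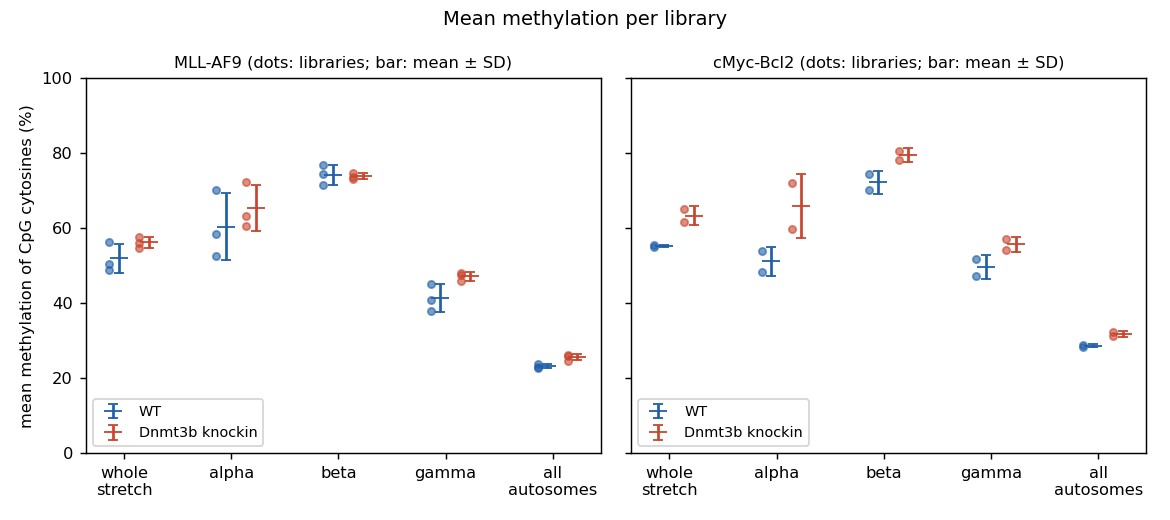
Mean methylation in percent (y axis) of usable CpG cytosines in the whole region, its 3 stretches and all autosomes (x axis), MLL-AF9 left and cMyc-Bcl2 right. Dots are libraries, bars are means ± SD over 3 or 2 libraries; the genotypes separate in MLL-AF9 in gamma and the autosomes, and in cMyc-Bcl2 throughout.

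On the 230 cytosines usable in all 10 libraries, alpha had the widest gap between genotypes, in cMyc-Bcl2. There the 33 alpha cytosines averaged 54.8 and 42.9% in WT and 81.0 and 72.4% in knockin libraries. In MLL-AF9 they averaged 47.5, 66.8 and 54.9% in WT and 57.7, 70.1 and 55.4% in knockin libraries, which overlap. The 59 beta cytosines averaged 73.5 and 60.9% in cMyc-Bcl2 WT and 72.2 and 77.3% in knockin, which overlap, unlike the 140 beta cytosines usable in that model alone. The 138 gamma cytosines averaged 35.3 to 41.5% in MLL-AF9 WT, 41.3 to 44.7% in MLL-AF9 knockin, 35.6 and 37.4% in cMyc-Bcl2 WT and 43.9 and 40.9% in cMyc-Bcl2 knockin libraries. The genotypes overlapped in gamma by a narrow margin in MLL-AF9 and not in cMyc-Bcl2.

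Windows were tested over all autosomes with a quasi-binomial fit whose dispersion was moderated with limma. A call needed a Benjamini-Hochberg adjusted p under 0.05 and a difference of 10 or more points. In MLL-AF9 none of the 36 protocadherin windows was called, beside 0.0515% of 46593 autosomal windows called higher and 0.00215% called lower. Without adjustment 5 of the 36, 13.9%, had a p under 0.05, against 14.8% of autosomal windows, and limma on M-values also called none. The autosomal share called by limma on M-values is not given, so its counts here and below describe the region alone. The knockin libraries lay above all WT libraries by a mean of 10 or more points in 3 of 36 windows, 8.33%, against a background of 7.82%, and below in none, against 0.238%. All 3 lay in gamma between 812 and 831 kb. Among windows with a mean of 20 to 80% they were 3 of 17, 17.6%, against 25.9% higher and 0.735% lower over the autosomes. Non-overlap is easier to reach with fewer libraries: the count was 9, 25.0% against 12.1%, without WT library 2, and 7, 19.4% against 11.5%, without knockin library 3. That of lower windows was 3, 8.33% against 0.572%, without knockin library 2, and 1 without WT library 2, knockin library 1 or knockin library 3.

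These 3 gamma windows differed in how far WT libraries spread. At 831 kb (3 cytosines, chr18:37911514-37911528, 29 to 68 reads) WT read 2.22, 51.7 and 7.69% and knockin 80, 63.2 and 83.8%. The difference was 55.1 points with a limma-moderated adjusted p of 0.176, and, over the cytosines then usable, 26.3 points without WT library 3 and 70.7 points without WT library 2. WT library 2 lay nearest to the knockin libraries, and the other two WT libraries were nearly unmethylated. At 812 kb (8 cytosines, chr18:37892547-37892638, 108 to 276 reads) WT read 65.3, 71.0 and 68.5% and knockin 94.0, 86.6 and 91.1%, a difference of 22.3 points (limma-moderated adjusted p = 0.0831). At 827 kb (5 cytosines, chr18:37907314-37907411, 64 to 123 reads) WT read 57.8, 52.1 and 43.1% and knockin 80.2, 78.0 and 72.8%, a difference of 26.0 points (limma-moderated adjusted p = 0.0943). At both of these windows the libraries of a genotype lay close together. The only window whose knockin libraries all lay below WT was at 824 kb, by 3.27 points: it read 89.6, 94.2 and 90.0% in WT and 88.9, 86.4 and 88.7% in knockin.

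In cMyc-Bcl2 none of the 68 windows was called, beside 0.0014% of 71497 autosomal windows called higher and 0.0% called lower. Without adjustment 15 windows, 22.1%, had a p under 0.05, against 12.4% of autosomal windows, and limma on M-values called none. Knockin libraries lay above WT by 10 or more points without overlap in 18 windows, 26.5%, against a background of 12.5%, and below in 1, 1.47%, against 3.27%. Among windows with a mean of 20 to 80% the shares were closer, 16 of 38 or 42.1% against 37.1%, and none lower, against 7.23%. By stretch, 6 of 12 alpha, 4 of 20 beta and 8 of 36 gamma windows were higher in this way. Higher by 20 or more points without overlap were 11 windows, 16.2%, against 6.52%. The count higher was 29, 40.8% against 16.7%, without knockin library 2. The count lower was 7, 9.86% against 8.44%, without knockin library 1, 3, 4.35% against 6.50%, without WT library 1, and 5, 7.35% against 5.27%, without WT library 2.

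**Figure D3:**
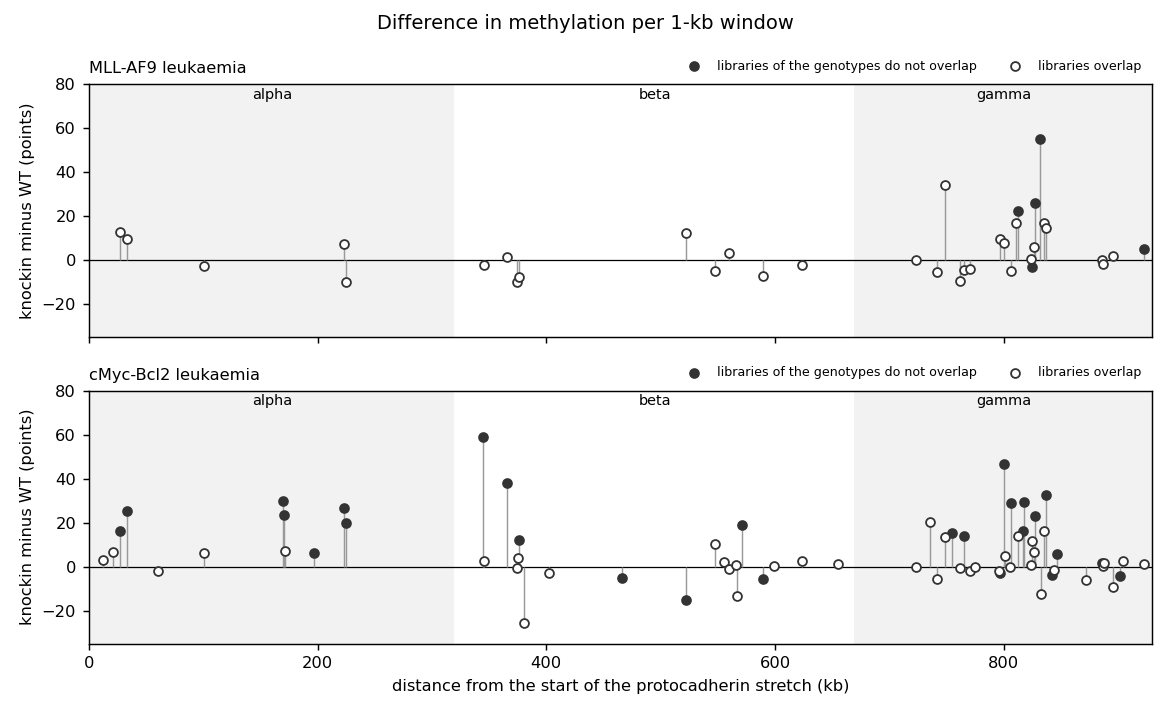
Knockin minus WT methylation in percentage points (y axis) per 1-kb window against distance in kb from the start of the region (x axis), MLL-AF9 above and cMyc-Bcl2 below. Filled dots are windows in which the WT and knockin libraries do not overlap; in MLL-AF9 those 10 or more points higher all lie in gamma, and in cMyc-Bcl2 they lie in all 3 stretches.

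The alpha windows with a difference in cMyc-Bcl2 lay in 3 places. Near the start, the window at 27 kb (12 cytosines) read 76.6 and 64.4% in WT and 88.0 and 85.7% in knockin libraries. At 169 kb (14 cytosines, chr18:37249576-37249779, 376 to 681 reads) WT read 24.4 and 31.9% and knockin 62.1 and 54.0%, a difference of 29.9 points with a limma-moderated adjusted p of 0.121. The neighbouring windows at 223 and 224 kb, with 21 cytosines each, were the least methylated alpha windows in WT. The first read 28.0 and 9.17% in WT and 58.2 and 32.2% in knockin libraries, and the second 25.4 and 9.26% against 42.0 and 32.1%. With the 4 groups in one fit and the 10 cytosines usable in all libraries, the window at 223 kb was called in cMyc-Bcl2, with a difference of 40.8 points and a limma-moderated adjusted p of 0.0224. It was 1 of 33 protocadherin windows, 3.03%, in a fit that called 5.63% of autosomal windows higher. No other change of setting tried in this comparison gave a call. At those 10 cytosines MLL-AF9 libraries read 8.89, 19.4 and 3.85% in WT and 19.9, 26.6 and 8.37% in knockin, with overlap.

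The largest difference in cMyc-Bcl2 was in beta, at 344 kb (8 cytosines, chr18:37424877-37424990, 231 to 398 reads). WT read 10.7 and 8.33% and knockin 68.6 and 68.0%, a difference of 58.7 points with a limma-moderated adjusted p of 0.0852. The libraries of each genotype differed by under 3 points, and the next window of the region, at 345 kb, was over 79% in all 4 libraries. The window had fewer than 3 usable cytosines in the MLL-AF9 comparison and was not fitted there. At 365 kb in beta (15 cytosines, chr18:37445016-37445419) WT read 45.9 and 30.3% and knockin 65.9 and 86.6%, a difference of 38.1 points. At 800 kb in gamma (3 cytosines, chr18:37880165-37880211) WT read 28.6 and 8.11% and knockin 53.8 and 76.1%, a difference of 46.7 points. Limma-moderated adjusted p-values of these were 0.242 and 0.255. The 2 largest losses without overlap were both in beta. At 522 kb WT read 93.4 and 84.8% and knockin 64.5 and 83.5%, a difference of -15.1 points that was -5.66 without knockin library 1 and -24.6 without knockin library 2. At 589 kb WT read 64.0 and 59.7% and knockin 59.6 and 52.5%.

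With both models in one fit and oncogene as a term, 2 of 33 protocadherin windows were called higher in the knockin, 6.06%, against 3.68% of 40428 autosomal windows, and 0 were called lower, against 0.0346%. The median difference was 2.66 points in the protocadherin windows and 0.713 points over the autosomes, and 26 of 33 windows, 78.8%, were higher, against 67.5%. Higher in each model taken alone were 42.4% of the 33 windows and 41.1% of the autosomal ones. The first called window was that at 827 kb in gamma. In cMyc-Bcl2 its 5 cytosines, with 64 to 268 reads in all 10 libraries, read 42.2 and 54.3% in WT and 75.4 and 63.4% in knockin, so that it did not overlap in either model. The mean of the differences in the 2 models was 23.6 points, and the fit gave a limma-moderated adjusted p of 0.0227. That mean was 20.6 to 26.6 points with each library left out. The call was made in 9 of 10 such fits, and the adjusted p was 0.0513 without MLL-AF9 knockin library 2. It was the only window with a gain of 10 or more points without overlap in both models, 3.03% of 33 against 2.67% of autosomal windows.

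The second called window, at 836 kb in gamma (6 cytosines, chr18:37916365-37916439, 50 to 492 reads), was less even. MLL-AF9 WT read 68.0, 94.2 and 44.2% and knockin 81.6, 85.0 and 83.8%, so that WT library 2 lay above all knockin libraries. cMyc-Bcl2 WT read 65.7 and 52.0% and knockin 88.2 and 82.1%. The mean of the differences in the 2 models was 20.5 points, and the fit gave a limma-moderated adjusted p of 0.0435. It was called in 1 of 10 fits with a library left out, with adjusted p from 0.00825 to 0.309. In the region 5 windows, 15.2% against 3.72%, were called without MLL-AF9 WT library 2, adding those at 27 and 223 kb in alpha and 800 kb in gamma. None was called without MLL-AF9 knockin library 2, and 1 without each of cMyc-Bcl2 WT libraries 1 and 2, cMyc-Bcl2 knockin library 1, MLL-AF9 WT libraries 1 and 3 and MLL-AF9 knockin library 1, with autosomal shares of 0.417 to 3.07%. Limma on M-values called none, and a coverage minimum of 10 reads left 1. Autosomal shares at these 2 settings are not given, so neither count can be set against a background.

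**Figure D4:**
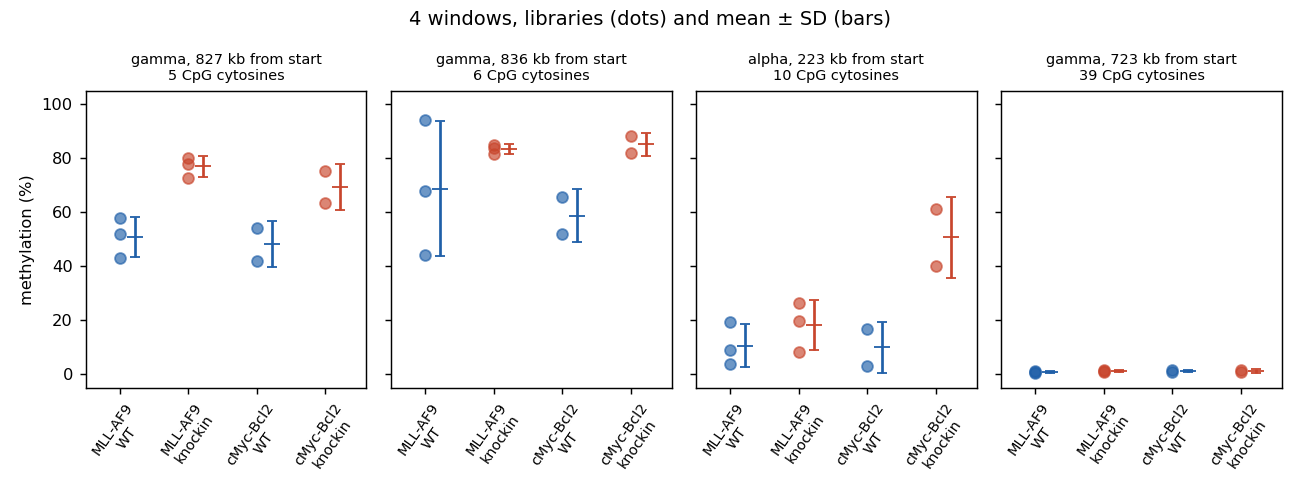
Methylation in percent (y axis) of 4 windows in the 4 groups (x axis); dots are libraries and bars are means ± SD. At 827 kb the knockin libraries of each model lie above its WT libraries, at 836 kb MLL-AF9 WT spans 44.2 to 94.2%, at 223 kb the cMyc-Bcl2 knockin libraries stand above the rest, and at 723 kb all libraries are below 1.68% or at it.

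The knockin difference was then compared between the models with an interaction term. None of the 33 windows was called, beside 0.0% of 40428 autosomal windows in either direction. Without adjustment 3 windows had a p under 0.05, 9.09% against 11.0% over the autosomes, and limma on M-values called none. The smallest adjusted p in the region was 0.309. In all 5 alpha windows the knockin difference was larger in cMyc-Bcl2, with a median of 25.5 points against 4.14 points in MLL-AF9. None of these differences between models passed the test. The knockin difference was larger in cMyc-Bcl2 in 20 of 33 windows of the region and in 15864 of 40428 autosomal windows. Over the autosomes the medians were 0.120 points in cMyc-Bcl2 and 1.12 points in MLL-AF9. In the 9 beta windows the cMyc-Bcl2 median was -0.0361 points and the MLL-AF9 median -2.27 points. In the 19 gamma windows they were 7.49 and 1.69 points.

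Between the WT leukaemias, cMyc-Bcl2 had the lower mean, 45.3% ± 2.38 (SD, n = 2) against 49.9% ± 3.77 (SD, n = 3) in MLL-AF9 over 248 cytosines. The cMyc-Bcl2 libraries read 47.0 and 43.6%, those of MLL-AF9 48.3, 54.2 and 47.1%, so the groups were apart by under 1 point. The difference was -4.56 points, -2.45 points without MLL-AF9 WT library 2 and -1.89 points weighted by reads. Over the autosomes the difference was 0.359 points and the groups overlapped. None of 34 windows was called, beside 0.105% of autosomal windows called higher and 0.0777% lower in cMyc-Bcl2. Without adjustment 2, 5.88%, had a p under 0.05, against 12.9%, and limma on M-values called none. By 10 or more points without overlap, 1 window was higher, 2.94% against 5.96%, and 3 were lower, 8.82% against 3.79%. Among the 19 windows with a mean of 20 to 80% 1 was higher, 5.26% against 19.8%, and 1 lower, 5.26% against 13.0%. With 1 library left out the lower count was 10, 29.4% against 7.55%, without cMyc-Bcl2 WT library 1, and 7, 19.4% against 7.44%, without its library 2. Without MLL-AF9 WT libraries 1, 2 and 3 it was 9, 5 and 6, or 21.4, 14.7 and 17.6% against 5.62, 4.68 and 5.64%. The higher count was 3 without cMyc-Bcl2 WT library 1 or 2, or 8.82 and 8.33% against 9.43 and 9.40%. It was 2 without MLL-AF9 WT library 1, 2 or 3, or 4.76, 5.88 and 5.88% against 7.78, 8.23 and 7.06%.

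The window higher in cMyc-Bcl2 WT lay in beta at 522 kb, with 98.2 and 83.2% against 76.7, 76.8 and 58.1%. Its difference of 20.2 points was 12.7 without cMyc-Bcl2 WT library 1. The largest difference in the other direction was in beta at 547 kb, where cMyc-Bcl2 WT read 86.4 and 39.5% and MLL-AF9 WT 95.3, 92.1 and 97.4%. There WT library 2 of cMyc-Bcl2 stood far below library 1, and the difference of -32.0 points was -8.58 without library 2 and -55.4 without library 1. In gamma at 765 kb (13 cytosines) cMyc-Bcl2 WT read 59.6 and 69.6% and MLL-AF9 WT 80.5, 92.5 and 79.2%, a difference of -19.5 points with a limma-moderated adjusted p of 0.220. In beta at 376 kb the values were 85.1 and 84.4% against 100, 90.1 and 100%.

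Between the knockin leukaemias the means were 59.9% ± 1.36 (SD, n = 2) in cMyc-Bcl2 and 58.7% ± 2.04 (SD, n = 3) in MLL-AF9, and the libraries overlapped. None of 37 windows was called, beside 1.84% of autosomal windows called higher and 1.12% called lower in cMyc-Bcl2. Without adjustment 5, 13.5%, had a p under 0.05, against 22.8%, and limma on M-values called none. By 10 or more points without overlap 3 windows were higher, 8.11% against 7.69%, and 3 lower, 8.11% against 6.71%. Among the 14 windows with a mean of 20 to 80% 3 were higher, 21.4% against 27.7%, and 1 lower, 7.14% against 17.3%. The higher count was 6, 16.2% against 9.15%, without cMyc-Bcl2 knockin library 1 and 7, 18.4% against 9.13%, without MLL-AF9 knockin library 2. The lower count was 6 without either cMyc-Bcl2 knockin library or without MLL-AF9 knockin library 3, with autosomal shares of 12.4, 7.88 and 8.62%. Without cMyc-Bcl2 knockin library 1, 2 gamma windows at 812 and 835 kb were called lower, 5.41% against 1.38%. That fit has 1 cMyc-Bcl2 library, which is assumed to vary like the MLL-AF9 libraries. The 10 cytosines at 223 kb in alpha were among the higher windows, at 61.4 and 40.2% against 19.9, 26.6 and 8.37%.

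Levels along the region were compared between the models as profiles. Across 33 windows the WT group means had a Pearson r of 0.934 and a Spearman rho of 0.898, and the knockin means 0.906 and 0.831; over 40428 autosomal windows the WT values were 0.974 and 0.940 and the knockin values 0.966 and 0.941. Windows of 1 library share its depth and conversion, and these values are a description.

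Replicate MLL-AF9 libraries had a wider median range in this region than over the autosomes. Among windows with a group mean of 20 to 80%, the median range over the 3 WT libraries was 30.8 points in 19 protocadherin windows and 20.7 points in 8281 autosomal windows. For the 3 knockin libraries it was 29.5 points in 14 windows and 17.3 points in 7675. Reads behind them were similar, with medians of 69 and 66 in WT and 104 and 110 in knockin. In cMyc-Bcl2 the median range of the 2 WT libraries was 12.2 points against 13.2, and that of the 2 knockin libraries 17.0 points against 12.4. Ranges over 3 and over 2 libraries are not comparable, and the region's windows were not tested against the autosomes.

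**Figure D5:**
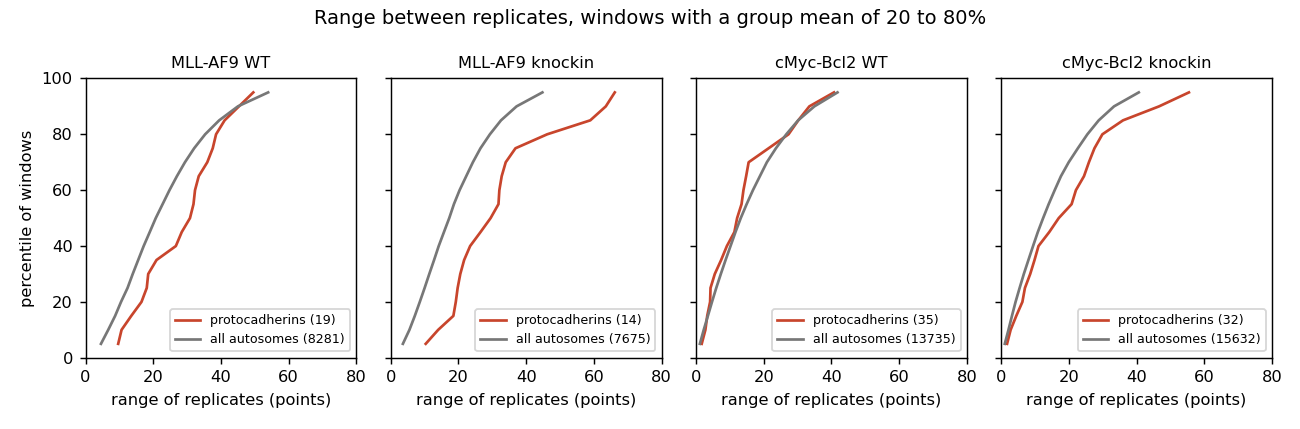
Percentile of windows (y axis) against the range between replicate libraries in percentage points (x axis) for windows with a group mean of 20 to 80%, by group. Red is the protocadherin region and grey all autosomes, with the number of windows in brackets; the red line lies to the right at every percentile drawn in MLL-AF9 knockin and at all but the highest in MLL-AF9 WT, and near the grey line in cMyc-Bcl2 WT.

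The windows with the widest range were described by library. In gamma at 741 kb (6 cytosines, 63 to 196 reads) the MLL-AF9 knockin libraries read 37.0, 80.4 and 13.3% and WT 54.0, 43.9 and 48.3%. In alpha at 224 kb the MLL-AF9 knockin libraries read 12.5, 78.1 and 43.1% and WT 34.0, 78.3 and 51.7%. At 810 kb in gamma the knockin values were 57.1, 76.9 and 18.3%, and knockin library 2 was again the highest. In cMyc-Bcl2 the 3 widest windows all had knockin library 2 far below library 1: 20.6 and 83.2% at 832 kb in gamma, 24.2 and 82.5% at 380 kb in beta, and 37.9 and 91.1% at 566 kb in beta. WT values there were 57.3 to 71.3%, 71.4 to 86.9% and 73.0 to 82.7%. The knockin difference of each changed sign without knockin library 2.

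Other protocadherin genes outside the clusters were sought through RefSeq promoter sequences, whose CpG spacing was matched to the listed positions. Of 16 genes on the list, which held non-clustered protocadherins and neighbours of the clusters, 8 were searched and 2 were placed. The search covered promoters in the table on autosomes other than chromosome 18, and none of the neighbours was among them. The Pcdh18 promoter, of a non-clustered protocadherin, lay at chr3:49561189-49561488. It averaged 5.78% ± 4.06 (SD, n = 3) in MLL-AF9 WT and 8.31% ± 3.51 (SD, n = 3) in knockin, with ranges of 2.96 to 10.4% and 6.20 to 12.4%. In cMyc-Bcl2 it read 5.54 and 35.3% in WT and 13.4 and 31.5% in knockin, so the genotypes overlapped in both models. The Pcdh9 promoter, at chr14:94289849-94290148, had 3 or more usable cytosines in cMyc-Bcl2 only. It read 2.86 and 8.72% in WT and 25.0 and 28.3% in knockin. The genotypes did not overlap, by a difference of 20.9 points, and no test was made of it.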

How the data were processed

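The submitters' processing notes name build mm9 and Bismark 0.7.4, Trim Galore 0.2.2, methylKit and CASAVA, with no role or setting for any of them. The deposited files list, per CpG position, a pair of whole-number read counts, read as methylated and unmethylated. Of 7972927 autosomal positions 2401038 lay 1 bp after another, so each is a cytosine on 1 strand; joining strands was added as an alternative after the data were seen.

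Members and lists were chosen with earlier results of these data known. Groups follow the oncogene and knockin labels. Levels are means over cytosines, each once, or summed reads per 1000-bp window. Windows with at least 3 cytosines were fitted over all autosomes by quasi-binomial logistic regression, with dispersion moderated by limma 3.58.1 in R 4.3.3, held at 1 or above, an F-test and Benjamini-Hochberg adjustment, and the fit was tested on simulated data. Python 3.11.15, numpy 2.4.6, pandas 2.3.3 and scipy 1.17.1 did the rest. Named windows were those called, the 3 largest gains and 2 largest losses without overlap per model, the 3 largest each way between WT groups, the 3 with the widest replicate range per model and, per stretch, up to 3 without overlap in either model; others were named after their values were seen. A promoter was placed with 10 or more matched cytosines, a minimum raised from 6 after the data were seen. Gene names and order come from a RefSeq table of GRCm38.p6. Reads lack molecular identifiers, so that depth speaks of counting error alone.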

Additional observations from a re-analysis of the deposited data

How the results depend on the processing

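Depth and the 2 or 3 libraries per group limit these results: 5.27% of listed protocadherin cytosines were usable in MLL-AF9 and 12.1% in cMyc-Bcl2, and a window often rests on 3 to 10 cytosines. With a coverage minimum of 20 reads the MLL-AF9 difference was 0.220 points, over 23 cytosines that all lay in gamma. At that minimum no MLL-AF9 window of the region at middle levels was left to describe the replicate range. The deepest window in MLL-AF9, at 723 kb, held 39 cytosines with 944 to 1820 reads per library. It averaged 0.912% in WT and 1.21% in knockin, a difference of 0.296 points. How many of the 23 cytosines lay in it was not determined. The value of 0.220 points therefore cannot tell whether the knockin difference holds at higher depth. The cMyc-Bcl2 difference was 2.64 points weighted by reads and 5.09 points with each window counted once, and that of gamma reversed to -1.33 points weighted by reads. The difference between knockin leukaemias reversed to -5.31 points weighted by reads and -0.720 points with each window once, and in gamma to 0.0122 points with a minimum of 20 reads. The cause was not tested. Joining the strands changed no direction of a mean and no count of calls.

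Leaving out each library in turn, some differences changed sign. The beta mean ranged from -1.80 to 0.878 points in MLL-AF9 (0.222 without WT library 1, 0.878 without WT library 2) and from -3.37 to 1.69 points between knockin leukaemias (1.69 without cMyc-Bcl2 knockin library 1, 0.178 without MLL-AF9 knockin library 3). Between WT leukaemias the window at 812 kb ranged from -5.74 to 4.55 points. In MLL-AF9 the window at 741 kb ranged from -23.6 to 10.001 points and that at 224 kb from -26.9 to 5.95 points (1.73 without WT library 2). In cMyc-Bcl2 the windows at 832, 380 and 566 kb ranged from -43.7 to 18.8, -54.9 to 3.34 and -40.0 to 13.2 points.

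Counts of windows 10 or more points apart without overlap were repeated with a library left out, with autosomal shares in brackets. In MLL-AF9 they ranged from 3 to 9 higher (8.56 to 12.1%) and 0 to 3 lower (0.432 to 0.623%). In cMyc-Bcl2 they ranged from 20 to 29 higher (14.1 to 16.9%) and 1 to 7 lower (4.42 to 8.44%). Between WT leukaemias they ranged from 2 to 3 higher (7.06 to 9.43%) and 5 to 10 lower (4.68 to 7.55%). Between knockin leukaemias they ranged from 3 to 7 higher (7.70 to 11.2%) and 2 to 6 lower (7.19 to 12.4%). At 20 or more points the counts were 11 higher, 16.2% against 6.52%, and 0 lower in cMyc-Bcl2. They were 1 lower between WT leukaemias and 0 lower between knockin leukaemias. With a minimum of 10 reads they were 0 higher and 1 lower between WT leukaemias, and with 500-bp windows 5 higher between knockin leukaemias. Called windows numbered 1 higher in cMyc-Bcl2 with the 4 groups in one fit, 3.03% against 5.63%. In the fit of both models they numbered 0 to 5 higher with a library left out, with autosomal shares of 0.417 to 4.31%. They numbered 1 with a minimum of 10 reads and 0 by limma on M-values. Where no autosomal share stands beside a count, the count describes the region alone. No paired analysis was possible because the numbers in the sample titles differ in every library and are not said to mark a pair, and replicate numbers given in accession order pair no samples.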
